A study of Mus musculus with 6 samples.

Results

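The Schlafen family of Slfn genes was examined in resting splenic CD8+ T cells (CD8-TC) that lacked the transcription factor Runx3. Members were taken by the gene symbol that the platform annotation gives each probe set, namely Slfn1, Slfn2, Slfn3, Slfn4, Slfn5, Slfn8 and Slfn9. Each of these 7 genes, of 19938 genes with a probe set of their own, had 1 probe set, and no row carried several Slfn symbols. RNA from freshly isolated CD8-TC was hybridised to Affymetrix Gene 1.0 ST arrays, which read whole mouse transcripts, with 1 array for each of 3 Runx3-/- and 3 WT (Runx3 +/+) mice. All were male ICR mice, an outbred stock, aged 6 weeks. According to the labels both genotypes were selected on anti-CD8 magnetic beads, and Runx3-/- cells were in addition FACS sorted to take away CD8+ dendritic cells that carry CD11c. The growth protocol, however, has the cells of both genotypes as FACS sorted. If only Runx3-/- cells were sorted, sorting and genotype cannot be told apart.

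Schlafen proteins are found in mammals and are known for holding back the growth of lymphocytes and for induction by type I interferon. They share an N-terminal Schlafen core. In mouse the short forms, Slfn1 and Slfn2, consist of little more than this core, the intermediate forms, Slfn3 and Slfn4, carry an additional stretch, and the long forms, among them Slfn5, Slfn8 and Slfn9, end in a domain that resembles RNA helicases. In T cells, forced expression of Slfn1 slows growth, and mutation of Slfn2 disturbs the quiescence of naive cells.

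Signals are given as log2 values, on which a difference of 1 is a doubling. Array medians over all probe sets lay between 3.45 and 3.53, and a probe set was tested where it reached the median of an array in at least 1 of the 6 arrays. All 7 members met this filter. Slfn4 did so only in 2 Runx3-/- arrays, so that its difference and the filter are not independent. The Runx3 probe set itself read 7.06, 7.17 and 7.64 in Runx3-/- and 7.09, 7.30 and 6.99 in WT arrays, and the part of the transcript it reads is not given, so that it does not check the genotypes. Cd8a, the defining coreceptor, averaged 11.06 in Runx3-/- and 11.10 in WT cells. Markers of other cells that a spleen can contribute differed between the genotypes. Of the macrophage and monocyte markers tested, 13 of 14 fell, with a range of the summed signal of 8.17 to 9.03 in Runx3-/- and 11.38 to 11.40 in WT arrays. All 9 B cell markers fell (7.54 to 7.99 in Runx3-/-, 10.09 to 10.69 in WT), as did 4 of 4 erythroid, 2 of 4 natural killer cell, 2 of 4 neutrophil and 1 of 9 dendritic cell markers. The median difference was -1.07 for natural killer cell, -0.60 for neutrophil and -0.86 for dendritic cell markers. Of the dendritic cell markers 8 did not pass. Of 8 T cell markers, 2 rose and 0 fell, with a median difference of 0.16. In such bulk samples fewer cells of a type and less RNA per cell cannot be told apart. The part of these markers in the results was not tested.

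By their annotated probe sets, all 7 members had a higher mean in Runx3-/- than in WT cells. A probe set without a symbol that the study names Slfn3, described below, had a difference of -2.78. The counts given here include Slfn3 by its annotated probe set only, and its direction as a gene is unsettled. Slfn5 and Slfn1 passed the test, and the other 5 did not. In limma, 2 of 7 members thus rose, whereas 4.82% of 12049 tested probe sets rose and 10.1% differed in either direction. At least 1.5-fold higher with an unadjusted p under 0.05, the fold and p of the study's methods, were 5 of 7 members (Slfn1, Slfn3, Slfn4, Slfn5 and Slfn8), against 3.15% of all tested probe sets. Without Slfn4, which entered through its Runx3-/- arrays, they were 4 of 6. The p here is limma's, whereas the study used other software, and its further criterion of a signal above background was not applied. In 5 of 7 members (Slfn1, Slfn2, Slfn3, Slfn5 and Slfn8) every Runx3-/- array lay above every WT array, which held for 16.6% of all tested probe sets. The median difference was 0.80 over the 6 members other than Slfn4 and -0.006 over all tested probe sets. With Slfn4 the median was 0.98, which is the difference of Slfn4 itself.

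**Figure D1:**
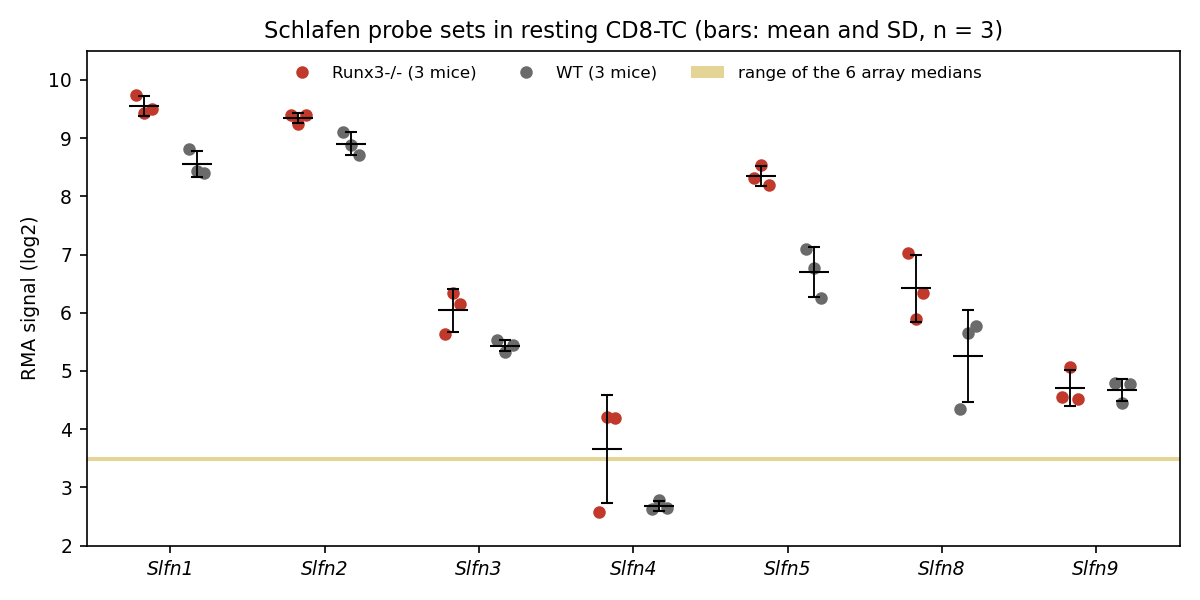
Log2 RMA signal (vertical axis) for each of the 7 Schlafen probe sets (horizontal axis) in the 3 Runx3-/- (red) and 3 WT (grey) arrays, 1 point per mouse, with bars for the mean and SD (n = 3) and a band for the range of the array medians. Slfn5 lies near 8.35 in Runx3-/- and 6.70 in WT cells, whereas Slfn9 overlaps between the genotypes and Slfn4 lies below the band in all WT arrays and in 1 Runx3-/- array.

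The long forms include the member with the largest change, and a member whose genotypes overlapped. The stretches before their transcription starts are shown because Slfn5 rose, and because those of Slfn8 and Slfn9 were the most alike of the family. They are the 250 bases before the start in RefSeq (GRCm38.p6), for Slfn5 at chr11:82951852-82952101 on the + strand, for Slfn8 at chr11:83020811-83021060 on the - strand and for Slfn9 at chr11:82991831-82992080 on the - strand. Capitals mark matches, on either strand, to the interferon-stimulated response element, searched as GAAANNGAAA, and to RUNX motifs, searched as TGTGGT, as TGTGGC, as TGCGGT and as TGCGGC.
Slfn5: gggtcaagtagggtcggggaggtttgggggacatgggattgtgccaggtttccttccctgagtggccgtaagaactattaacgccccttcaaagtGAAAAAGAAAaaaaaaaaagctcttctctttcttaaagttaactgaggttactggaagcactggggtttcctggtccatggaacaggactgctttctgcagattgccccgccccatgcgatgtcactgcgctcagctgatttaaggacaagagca
Slfn8: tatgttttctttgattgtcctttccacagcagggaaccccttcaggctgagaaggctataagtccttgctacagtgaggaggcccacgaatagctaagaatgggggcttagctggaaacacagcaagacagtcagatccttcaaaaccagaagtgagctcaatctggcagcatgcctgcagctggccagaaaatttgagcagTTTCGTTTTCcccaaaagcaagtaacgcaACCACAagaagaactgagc
Slfn9: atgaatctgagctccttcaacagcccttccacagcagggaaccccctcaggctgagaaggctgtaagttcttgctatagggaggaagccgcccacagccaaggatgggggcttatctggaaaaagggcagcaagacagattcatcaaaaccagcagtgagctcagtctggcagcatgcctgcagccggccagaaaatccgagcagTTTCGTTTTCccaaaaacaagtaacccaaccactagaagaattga

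Slfn5, a nuclear long form that type I interferon induces, read 8.31, 8.54 and 8.20 in Runx3-/- arrays, against 7.09, 6.77 and 6.25 in WT arrays. The genotypes did not overlap, and the lowest Runx3-/- array lay 1.11 above the highest WT array. Slfn5 was 3.13-fold higher in Runx3-/- cells, a difference of 1.65 ± 0.21 (SE, n = 3 per group, limma adjusted p = 0.00348), with a 95% interval of 1.17 to 2.13. Of all tested probe sets, 0.249% had a larger rise. The WT arrays were more spread (SD 0.42) than the Runx3-/- arrays (SD 0.17), and the difference ranged from 1.42 without WT replicate 3 to 1.84 without WT replicate 1.

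Slfn8 read 7.03, 5.90 and 6.33 in Runx3-/- arrays, against 4.34, 5.66 and 5.77 in WT arrays. The groups were separate, but by 0.13 only, and WT replicate 1 stood well below the other WT arrays. The difference of 1.16 ± 0.42 (SE) had a 95% interval of 0.19 to 2.14 and did not pass (limma adjusted p = 0.121). It was 0.71 without WT replicate 1 (adjusted p = 0.247). In size, a larger rise was seen in 0.49% of tested probe sets, and the SD was 0.57 among Runx3-/- and 0.79 among WT arrays.

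Slfn9 read 4.55, 5.07 and 4.52 in Runx3-/- arrays, against 4.79, 4.45 and 4.77 in WT arrays. The genotypes overlapped in part, with a Runx3-/- array the highest and a WT array the lowest of all 6. Its difference was 0.04 ± 0.17 (SE, limma adjusted p = 0.897), with a 95% interval of -0.36 to 0.44, and its sign turned under quantile normalization (-0.02). Slfn8 and Slfn9 are close copies of each other, and no source used here states whether their probes tell the transcripts apart. Over the 250 bases shown above their promoters had 79.8% identity in a gapped alignment, whereas the other pairs of members reached at most 49.1%. The response element match lay 48 to 39 bases before the start of Slfn8 and 45 to 36 bases before that of Slfn9.

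**Figure D2:**
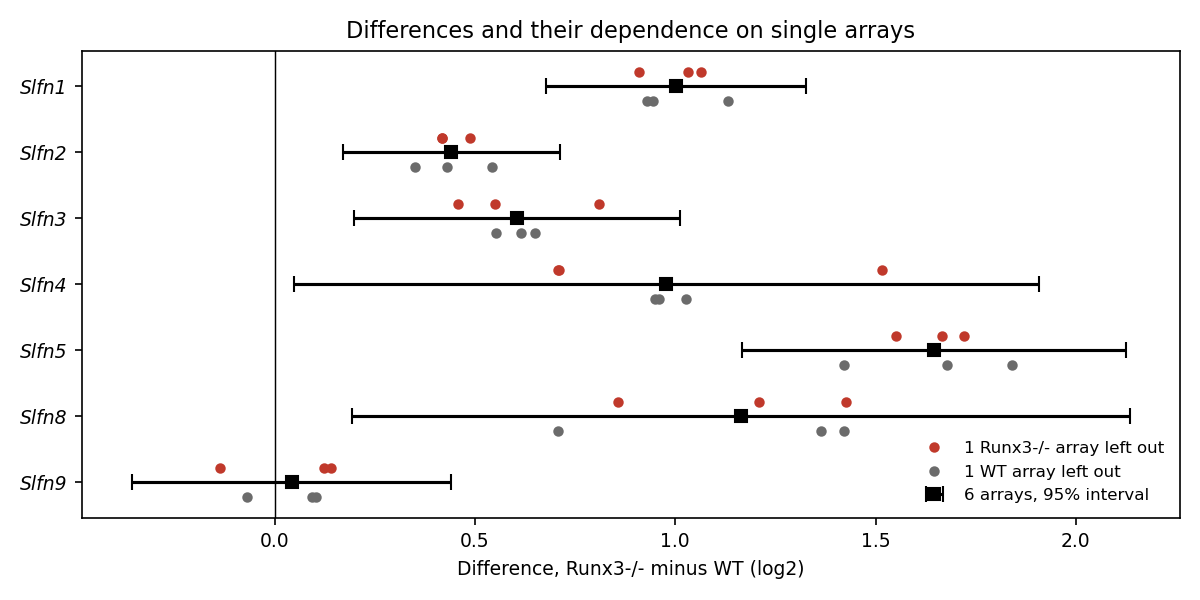
Difference between Runx3-/- and WT signal on the log2 scale (horizontal axis) of each member (vertical axis), as black squares with the 95% interval from limma over 6 arrays, and with 1 Runx3-/- (red) or 1 WT (grey) array left out. Slfn1 and Slfn5 stay away from 0 in each case, Slfn4 moves to 1.52 without Runx3-/- replicate 1, and Slfn9 falls on both sides of 0.

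All members but Slfn4 reached the array median in all 6 arrays. The short forms, with a reported part in T cell growth and quiescence, had the highest means in both genotypes. Their promoters are shown because they share a match that those of the long forms lack. These are the 250 bases before the start of Slfn1 at chr11:83116570-83116819 and of Slfn2 at chr11:83064862-83065111, both on the + strand in RefSeq (GRCm38.p6). Capitals mark matches on either strand to an ETS motif, searched as CAGGAAGT, and to the RUNX motifs above.
Slfn1: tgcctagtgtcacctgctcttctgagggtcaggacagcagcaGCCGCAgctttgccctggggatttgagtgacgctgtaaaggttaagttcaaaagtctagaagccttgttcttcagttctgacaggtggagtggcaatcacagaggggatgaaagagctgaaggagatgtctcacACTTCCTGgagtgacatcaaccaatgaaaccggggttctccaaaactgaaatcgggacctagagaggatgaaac
Slfn2: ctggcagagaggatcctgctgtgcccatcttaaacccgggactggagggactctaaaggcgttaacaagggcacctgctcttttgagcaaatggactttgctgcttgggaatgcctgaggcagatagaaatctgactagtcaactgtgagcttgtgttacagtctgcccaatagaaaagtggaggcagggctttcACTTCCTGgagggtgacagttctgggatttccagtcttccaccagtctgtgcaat

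Slfn1 read 9.74, 9.43 and 9.49 in Runx3-/- arrays, against 8.81, 8.43 and 8.40 in WT arrays. All Runx3-/- arrays lay above all WT arrays, with 0.61 between the nearest of them. Slfn1 was 2.0-fold higher in Runx3-/- cells, a difference of 1.0 ± 0.14 (SE, n = 3 per group, limma adjusted p = 0.00527) with a 95% interval of 0.68 to 1.33. The adjusted p stayed between 0.0053 and 0.0261 with any 1 array left out.

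Slfn2, which guards the quiescence of naive T cells, read 9.39, 9.25 and 9.39 in Runx3-/- arrays, against 9.11, 8.88 and 8.72 in WT arrays. The groups were separate by 0.14, the Runx3-/- arrays lay close together (SD 0.08), and the WT arrays were more spread (SD 0.20). The difference of 0.44 ± 0.12 (SE, 95% interval 0.17 to 0.71) missed the threshold, with a limma adjusted p of 0.0534. It passed where 1 probe set was kept per gene (adjusted p = 0.0473), with an intensity trend in the variances (adjusted p = 0.0317) and without WT replicate 1 (adjusted p = 0.0435), and not under the other 13 alternatives. In simulated data with 200 of 12049 probe sets changed, 37.0% of changes of 0.5 were called. In the data 1221 probe sets passed, so that this share may not hold for Slfn2.

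Of the intermediate forms, Slfn4 varied most of all members among the Runx3-/- arrays (SD 0.93). Slfn3 (SD 0.36) varied less there than Slfn8 (SD 0.57). Slfn3, studied in the differentiation of gut epithelium in rat, read 5.64, 6.34 and 6.15 in Runx3-/- arrays, against 5.52, 5.33 and 5.45 in WT arrays. Replicate 1 was the lowest of the Runx3-/- arrays and lay only 0.11 above the highest WT array. The difference was 0.61 ± 0.17 (SE, 95% interval 0.20 to 1.01) and did not pass (limma adjusted p = 0.0693). Without Runx3-/- replicate 1 it was 0.81 (adjusted p = 0.0111).

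A further probe set has no symbol in the platform annotation and is no member here, but the study names it Slfn3. It read 5.15, 4.76 and 5.19 in Runx3-/- arrays, against 7.91, 7.98 and 7.57 in WT arrays. The groups were far apart, and its difference of -2.78 ran opposite to that of the annotated Slfn3 probe set. No test is given, because it came to notice through a list made from these samples. Which transcript it reads is not settled by the sources used here, so that the direction of Slfn3 as a gene stays unsettled.

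Slfn4, a myeloid member that interferon induces in macrophages, read 2.58, 4.20 and 4.20 in Runx3-/- arrays, against 2.63, 2.78 and 2.65 in WT arrays. Replicates 2 and 3 of Runx3-/- stood well above every WT array, whereas Runx3-/- replicate 1 was the lowest of all 6 and all WT arrays were below the array median. The difference of 0.98 ± 0.40 (SE) did not pass (limma adjusted p = 0.164). It was 1.52 without Runx3-/- replicate 1, which leaves the 2 Runx3-/- arrays that brought Slfn4 past the filter, so that no p is given, and 0.71 without replicate 2 or without replicate 3. Macrophage and monocyte markers averaged 4.13, 4.63 and 4.74 in the 3 Runx3-/- arrays and 6.94, 6.87 and 6.82 in the WT arrays. Neutrophil markers averaged 3.10, 3.03 and 3.39 in Runx3-/- and 4.05, 4.30 and 3.53 in WT arrays. Both marker lists were highest in the WT arrays, in which Slfn4 was below the array median. Among the Runx3-/- arrays, Slfn4 and the macrophage list were both lowest in replicate 1, and the neutrophil list in replicate 2. The part of either list in the Slfn4 values was not tested.

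**Figure D3:**
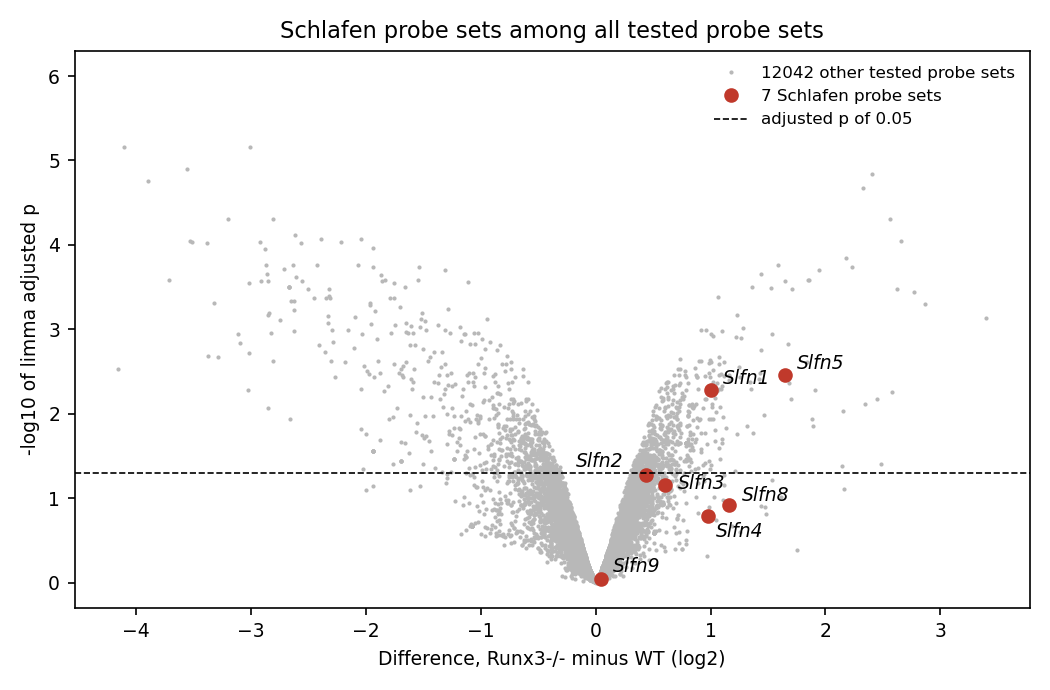
Difference between Runx3-/- and WT signal on the log2 scale (horizontal axis) against the negative log10 of the limma adjusted p (vertical axis) for all 12049 tested probe sets (grey), with the 7 members in red and a dashed line at an adjusted p of 0.05. Slfn1 and Slfn5 lie above the line, Slfn2 just under it, and no member lies left of 0.

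The promoters of the members fell into groups by the motifs they held. The response element letters were in 3 of 7 promoters, those of the long forms Slfn5, Slfn8 and Slfn9, and in 2.98% of 32851 RefSeq promoters over the same 250 bases. The promoters of Slfn8 and Slfn9 had 79.8% identity and the same matched letters, so that these matches are not independent. In Slfn5 the match runs into a stretch of A. The ETS letters were in 4 of 7, those of the short and intermediate forms Slfn1, Slfn2, Slfn3 and Slfn4, and in 2.69% of all promoters. RUNX letters were in those of Slfn1 and Slfn8, and in 38.0% of all promoters. The ETS match ended 67 bases before the start in Slfn1, 48 in Slfn2 and 66 in Slfn4, and Slfn3 held a pair of them. Slfn8 has a second annotated start, before which the same response element and RUNX matches lie farther away. The ETS motif was picked after the promoters had been read, so that its share among the members is a description, and a match is not evidence of binding. The member that rose most and the member with the smallest difference, Slfn5 and Slfn9, both held the response element letters. The part of any of these letters in the signals was not tested.

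**Figure D4:**
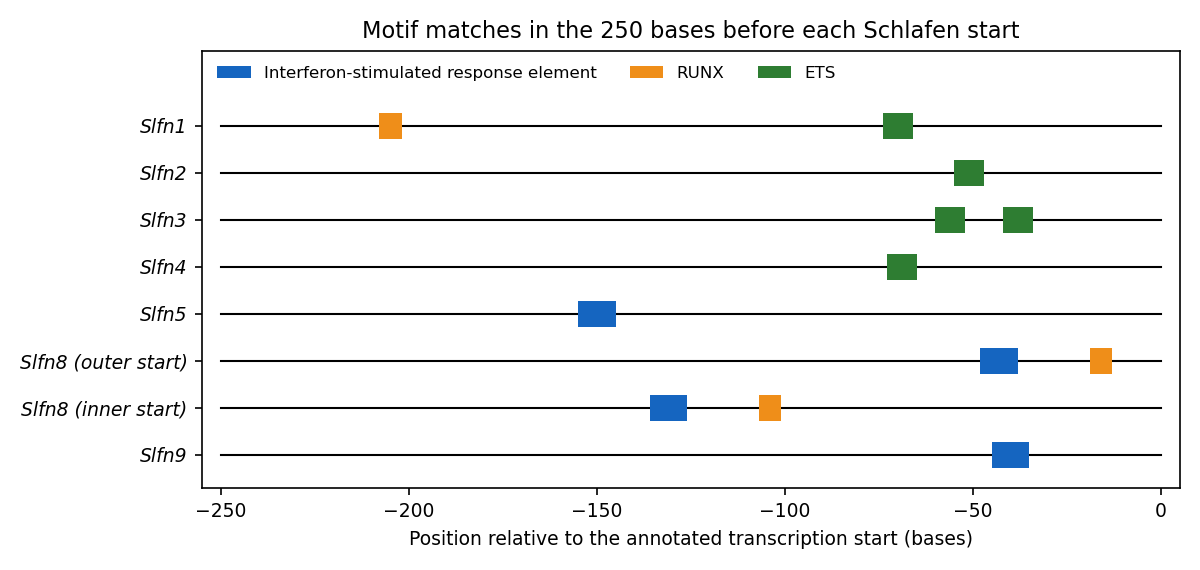
Matches to the interferon-stimulated response element (blue), RUNX (orange) and ETS (green) motifs on either strand, by their distance in bases from the annotated start (horizontal axis), for the 7 members and both starts of Slfn8 (vertical axis). ETS matches lie in Slfn1 to Slfn4 and response element matches in Slfn5, Slfn8 and Slfn9.

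The genes lie together on chromosome 11, in the order Slfn5, Slfn9, Slfn8, Slfn10-ps, Slfn2, Slfn1, Slfn4, Slfn3 and Slfn14. Slfn10-ps, whose name marks a pseudogene and which is not a member here, read 6.10, 5.95 and 5.82 in Runx3-/- arrays, against 5.19, 5.30 and 5.61 in WT arrays. The genotypes were separate by 0.21, and the difference of 0.59 ± 0.13 passed (SE, limma adjusted p = 0.0333). It did not pass when probe sets without a symbol were tested as well (adjusted p = 0.0893). Slfn5os, a noncoding RNA next to Slfn5, stayed at 2.62 to 2.67 in Runx3-/- and 2.53 to 2.67 in WT arrays, below every array median. Of 5 genes on either side of the cluster 3 were tested, and 0 passed in limma (0 at an unadjusted p under 0.05). Within the cluster, Slfn9 lies between Slfn5 and Slfn8.

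Other interferon response genes were set beside the family. The list was chosen for the known induction of Slfn genes, but with earlier results of these data known, so that its counts only describe. Of 26 tested, 11 rose and 1 fell, whereas 14 did not pass. Over all tested probe sets 4.82% rose and 10.1% differed in either direction. The median difference of the list was 0.47, against -0.006 over all tested probe sets. Usp18, which dampens interferon receptor signalling, rose by 2.62 ± 0.20 (SE), and Ifit2, an RNA-binding antiviral protein, by 1.10 ± 0.11. Zbp1, a sensor of nucleic acids, rose by 1.07 ± 0.12 and Irf7, a transcription factor of the interferon response, by 1.01 ± 0.12 (limma adjusted p of 0.00243 or lower for these 4). The gene that fell, named after its values were seen, was Rsad2, an antiviral enzyme, with a difference of -0.92 (adjusted p = 0.0453). The list averaged 5.61, 5.82 and 5.51 in Runx3-/- arrays, against 5.24, 5.06 and 5.07 in WT arrays, so that all Runx3-/- arrays were higher. Of 12 genes of interferon receptors and their signalling, Stat2 (0.62), Irf9 (0.49) and Irf1 (0.42) rose and the phosphatase gene Ptpn6 (-0.42) fell, while 8 did not pass, and the median difference was 0.11.

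Other quiescence genes of T cells were set beside Slfn2, in a list also chosen with earlier results of these data known. Of 16 tested, 1 rose and 1 fell, whereas 14 did not pass. This is near the share of all tested probe sets, of which 4.82% rose and 10.1% differed in either direction. The median difference of the list was 0.13, against -0.006 over all tested probe sets. Bach2, a repressor that keeps T cells naive, read 7.75, 7.83 and 7.66 in Runx3-/- arrays, against 7.04, 7.28 and 6.99 in WT arrays, and rose by 0.64 ± 0.11 (SE, limma adjusted p = 0.0107). Tob1, an antiproliferative protein, fell by 0.45 ± 0.11 (adjusted p = 0.0407). The next lowest p belonged to Ccr7, a lymph node homing receptor (0.40, adjusted p = 0.0757), and Ets1 (0.30, adjusted p = 0.118).

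The genes whose signals were most like those of the members that rose were named by Pearson's r over the 6 arrays, which share the split by genotype, so that these values only describe. For Slfn1 they were Syne3 (r = 0.999), a nuclear envelope protein, Ahcyl2 (0.994) and Mboat1 (0.993). For Slfn5 they were Cd84 (0.998), a receptor of the SLAM family, Zc3hav1 (0.998), an antiviral zinc finger protein, and Cd226 (0.995), an activating receptor. An r of 0.9 or above was reached by 355 of 11013 other probe sets for Slfn1 and by 582 for Slfn5.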

How the data were processed

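The deposited values were log2 signals per probe set and mouse. Per the study's methods, the authors normalized the array files in Partek Genomics Suite by RMA with a GC correction; for the arrays, neither a software version nor a genome build was given in the sources used here. No value was renormalized, and no detection call was used, so that differences at low signal may be understated.

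A probe set was tested when it had a gene symbol and reached the array median in at least 1 array, which left 12049 of 35399. Probe sets with several symbols were included. Differences are Runx3-/- minus WT and were tested two-sided with limma 3.58.1 (R 4.3.3; lmFit, eBayes, no covariates), with Benjamini-Hochberg adjustment over all tested probe sets and a threshold of 0.05. Errors are SD over 3 mice or limma's SE, and 6 arrays limit the precision. In simulations of these 12049 probe sets, 200 were changed, whereas 1221 passed in the data. In them limma called 37.0% of changes of 0.5, 84.6% of 1 and 97.3% of 2, with 3.94% false calls. The share called depends on how many probe sets change, so that these values may not hold for the data. A list gene was represented by its brightest tested probe set. Named are all members, up to 4 list genes with the lowest p, and the 3 genes most like each member that rose.

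The alternatives were other filters, other sets of probe sets, 2 normalizations, 3 treatments of the variance, the replicate number as a block, each array left out in turn and the fold and p of the methods. Members, lists and motifs were chosen with earlier results of these data known. Promoters and gene order are from RefSeq (GRCm38.p6), in which all 7 members were matched by symbol. Promoters were aligned pairwise with Biopython 1.88 (match 1, mismatch -1, gap opening -3, extension -0.5).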

Additional observations from a re-analysis of the deposited data

How the results depend on the processing

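The rises of Slfn5 (1.42 to 1.84) and Slfn1 (0.91 to 1.13) passed under 15 of 16 alternatives each and not without moderation of variances (adjusted p of 0.0812 and 0.0823), where 0 members (4 at an unadjusted p under 0.05) and 200 of all probe sets passed in limma's ordinary fit, against 2 and 1221. Slfn8 passed under none of 16, Slfn3 and Slfn4 only without Runx3-/- replicate 1, where the pass of Slfn4 is fixed in part by the filter, since only Runx3-/- replicates 2 and 3 brought it past. With any 1 array left out, 2 to 4 members and 596 to 993 probe sets passed, fewest probe sets without WT replicate 1, with 599 without Runx3-/- replicate 3 and 631 without Runx3-/- replicate 2. With probe sets that have no symbol, 635 passed. By fold and unadjusted p, 5 members passed, or 4 without Slfn4, left out after its values were seen. The sign of Slfn9 turned under quantile normalization (-0.020), without Runx3-/- replicate 2 (-0.14) and without WT replicate 2 (-0.07), with a range of -0.14 to 0.14 over arrays left out. The cause of these changes was not tested. Whether replicate numbers pair the mice is not settled by 3 arrays per group. Deviations of same-numbered arrays correlated across probe sets at 0.19, 0.02 and 0.004. The value of replicate 1 was the highest of any pair. Runx3-/- replicate 2, however, correlated best with WT replicate 3 (0.07), and Runx3-/- replicate 3 with WT replicate 2 (0.06). With the replicate block, 1152 probe sets and 2 members passed, and no member's call changed. Low signal limits Slfn4 and Slfn9 most, since no detection calls were used.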
